A study of Mus musculus with 2 samples.

Results

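The genes described here make ribosomes and trim ribosomal RNA: factors of RNA polymerase I, the small subunit (SSU) processome, small nucleolar ribonucleoproteins (snoRNPs), the maturing large subunit and the RNA exosome. They were taken by name from 2 one-colour Agilent arrays. A probe belonged if its gene name began with Rrp, Nop, Exosc, Utp or Polr1 and went on with a number or letter, or was one of 12 further names such as Fbl, Ncl, Npm1 and Ubtf. This took 54 of 41174 gene probes, for 29 of 21537 gene names. The group was selected on its D6 and D0 intensities on these same arrays, so the intensities and differences below are a description and carry no test.

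Ribosomes are assembled in the nucleolus. RNA polymerase I copies the ribosomal DNA into a long precursor, which is cut, modified and folded by several large complexes while ribosomal proteins join. The RNA exosome, a ring of subunits with a cap and an attached nuclease, trims and degrades RNA from its 3′ end, including ribosomal precursors. Fast-dividing cells such as embryonic stem (ES) cells are known for large nucleoli and a high demand for ribosomes.

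Total RNA of the mouse ES cell line R1 was labelled with Cy3 and measured at day 6 of direct neural differentiation, as embryoid body (EB) cells that the labels also call neural precursors, and at day 0 as undifferentiated ES cells. The D0 cells grew on mitotically inactive fibroblast feeders with serum and leukaemia inhibitory factor (LIF). Both samples are 1 cell line, with no further allele or agent named in the labels used here. Each group had 1 array, so there is no replicate check and no p-value, and precision is limited by having 2 arrays. They shared a slide and a scan at different positions, so position and day cannot be told apart. Intensities are the scanner software's background-subtracted values. A difference is the D6 minus D0 log2 intensity after each array's 75th percentile was subtracted, and its error is the SD from the software's error model, which holds no variation between cultures. A gene was measured if a probe stood well above background on at least 1 array, and it took the value of its brightest probe.

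Most markers of the labelled cell types differed in the direction of the labels. All 8 pluripotency markers were at least 2-fold lower on D6, with a summed intensity of 32169 on D6 and 1070437 on D0. Of 7 measured neural precursor markers, 6 were at least 2-fold higher on D6 (summed 345225 on D6 and 37329 on D0). Nes of that list was higher by 0.34 log2 units, and Sox3 was not measured. Of 6 neuron markers, 5 were at least 2-fold higher (211559 and 31844), and Stmn2 was higher by 0.16. The D6 RNA thus held neuron markers beside those of neural precursors. Of 8 feeder fibroblast markers, 5 were at least 2-fold lower on D6 (24649 and 125107), and Lox was not well above background there. Col3a1 and Postn of that list were higher on D6 by 0.22 and 0.29 log2 units. Feeder markers, growth medium and aggregation moved together with the day of culture, and their part in the results below was not tested. In such bulk RNA, fewer cells of a type and less RNA per cell cannot be told apart.

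The 29 genes were lower on D6 as a group. All were measured, and each stood well above background on both arrays with none saturated. The 75th percentile scaling put 29 of 29 lower on D6, where 53.1% of all 16000 measured genes were lower. Past the 1.5-fold limit were 16 lower members (31.0% of all genes), and 8 of them passed the 2-fold limit (20.7% of all genes). Among 13732 genes well above background on both arrays, 55.0% were lower on D6, 29.7% by 1.5-fold or more and 17.9% by 2-fold or more. Median scaling put 12 members past 2-fold, and the count past 1.5-fold was 13 with no scaling and 20 with the mean over a gene's probes. Since these values chose the group, nothing is read from the counts. No member was at least 1.5-fold higher (28.6% of all genes) or 2-fold higher (20.6% of all genes). The median difference was -0.66 log2 units for the members and -0.08 for all genes, so the members' median lay -0.58 log2 units from that of all genes.

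The size of each difference depends on the scaling. D6 minus D0, the median of all genes was -0.20 with median scaling and 0.14 with no scaling, against -0.08 here. These 3 scalings shift all genes alike, so they leave the gap between members and all genes as it is. Other settings moved that gap to between -0.36 (no filter on dim probes) and -0.89 (members by current symbol), with -0.74 for the mean over a gene's probes. Without scaling, where the median of all genes was 0.14, 25 of 29 members were lower. Taf1b, Nop17, Exosc8 and Exosc9 were then higher by 0.06, 0.11, 0.18 and 0.15 log2 units. Relative to the median of all genes, which by definition has as many genes above as below it, 27 of 29 members were lower. Nothing is read from these counts. The software SD was below 0.21 for 28 members. A limit set in software SDs is thus nearly a fixed cut on size, and no count by it is given.

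**Figure D1:**
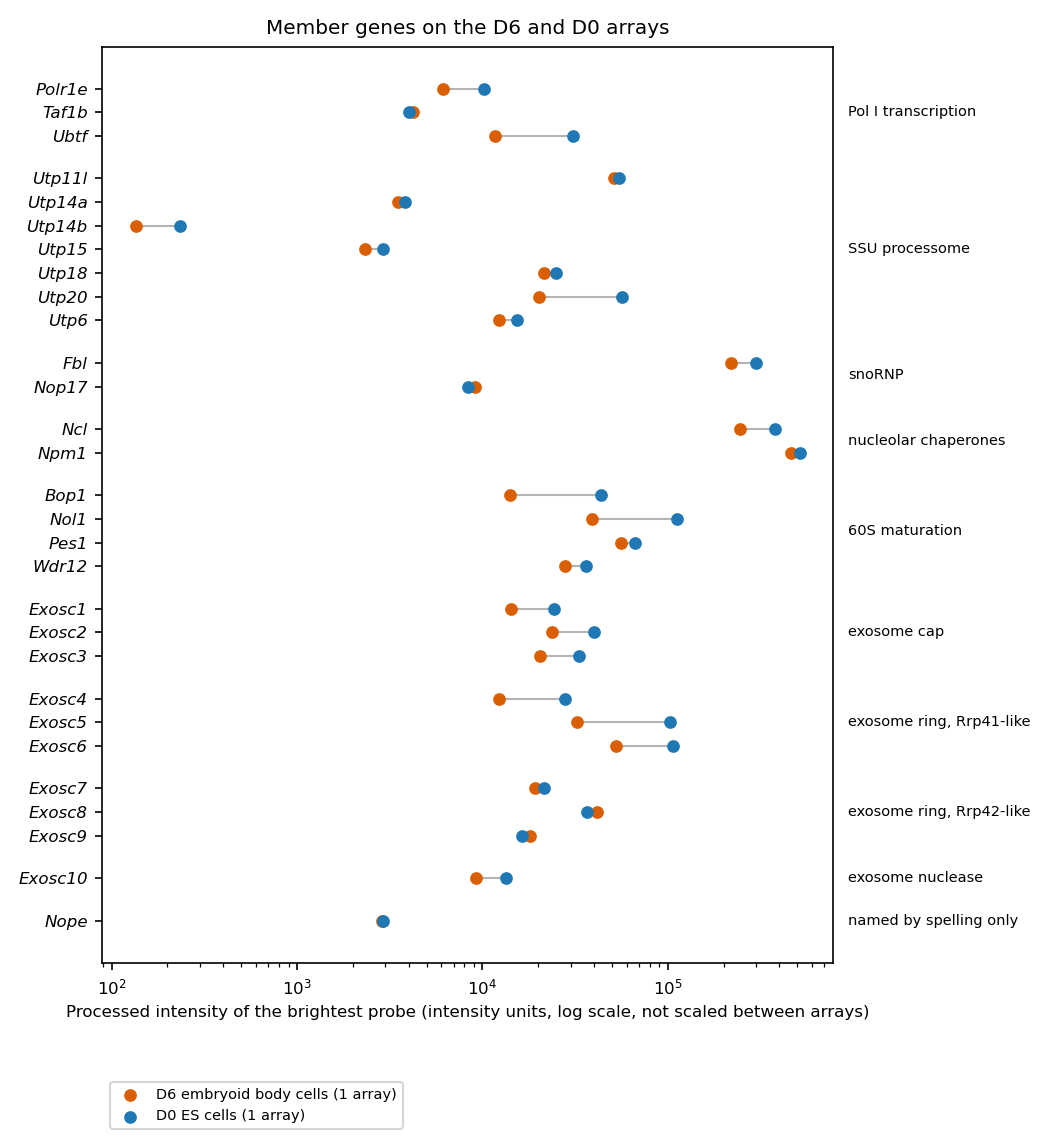
Processed intensity (log axis, not scaled between arrays) of the brightest probe of each of the 29 genes, D6 in orange and D0 in blue, 1 array each, ordered by role. Most D6 points lie left of their D0 points, and those of Taf1b, Nop17, Exosc8 and Exosc9 lie to the right.

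RNA polymerase I transcription was represented by 3 genes. Ubtf, an HMG-box protein that binds ribosomal DNA, had an intensity of 11650 on D6 and 30617 on D0, a log2 difference of -1.62 ± 0.20 (3.07-fold lower). Its second probe gave -1.59. Polr1e, a subunit of the polymerase, had 6146 on D6 and 10167 on D0, a difference of -0.95 ± 0.20. Taf1b, part of the factor that selects the Pol I promoter, had 4206 on D6 and 4034 on D0, a difference of -0.16 ± 0.20 that lay within its software error.

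The SSU processome assembles with U3 snoRNA on the precursor and makes the small subunit RNA. By brightest probe, 2 of its 7 Utp genes were at least 1.5-fold lower, where 31.0% of all genes were. With the mean over a gene's probes, Utp18 (-0.82), Utp15 (-0.67) and Utp14a (-0.63) also passed that limit, and Utp6 stood at -0.09. The count thus depends on the choice of probe, and nothing is read from it. The median difference was -0.54 by brightest probe and -0.67 with the mean over probes. Utp20, a very large scaffold protein, had 20277 on D6 and 56500 on D0 (-1.70 ± 0.20, 3.25-fold lower), and it stood well apart from the other Utp genes. Utp14b, an intronless copy of Utp14a that is needed in mouse for spermatogenesis, had 135 on D6 and 234 on D0, a difference of -1.02 ± 0.31. Its intensities were only a little above the lowest intensities well above background (85.2 on D6 and 102 on D0), and was at -0.68 with no background subtraction. Its partner Utp14a had 3495 on D6 and 3811 on D0 (-0.35 ± 0.20).

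By brightest probe, the remaining Utp genes lay between -0.32 and -0.54. Other measured probes of Utp6, Utp15 and Utp18 lay between -1.20 and 0.39. Utp11l had 50987 on D6 and 54691 on D0 (-0.32 ± 0.20). Utp6 lay just outside the 1.5-fold limit at -0.54, with 12307 on D6 and 15348 on D0. Utp15 had 2334 on D6 and 2908 on D0 (-0.54 ± 0.20), and Utp18 had 21400 on D6 and 24876 on D0 (-0.44 ± 0.20).

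By brightest probe, the snoRNP and nucleolar chaperone genes were each less than 2-fold lower. With the mean over its probes, Ncl passed the 2-fold limit (-1.16). Fbl (fibrillarin), the 2′-O-methyltransferase of box C/D snoRNPs, had 220594 on D6 and 297868 on D0 (-0.66 ± 0.20). Nop17, now Pih1d1, belongs to the complex that assembles box C/D snoRNPs and had 9100 on D6 and 8403 on D0 (-0.11 ± 0.20). Ncl (nucleolin), an abundant RNA-binding protein of the nucleolus, had 243710 on D6 and 379691 on D0 (-0.86 ± 0.20). Npm1 (nucleophosmin), a nucleolar histone and ribosome chaperone, had 461944 on D6 and 515813 on D0 (-0.38 ± 0.20). Npm1 has many pseudogene copies, and whether its probes separate them was not examined.

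By brightest probe, genes of large subunit maturation split into a strongly and a weakly lower pair. Bop1, Pes1 and Wdr12 encode the PeBoW complex, which is needed to process the large subunit RNAs, and Nol1 (now Nop2) is an RNA methyltransferase of that subunit. Bop1 had 14004 on D6 and 43713 on D0, a difference of -1.87 ± 0.20 (3.64-fold lower). Nol1 had 38784 on D6 and 112474 on D0, a difference of -1.76 ± 0.20 (3.39-fold lower). The partners of Bop1 differed less. Wdr12 had 27794 on D6 and 36275 on D0 (-0.61 ± 0.20), just inside the 1.5-fold limit. Pes1 had 55791 on D6 and 66170 on D0 (-0.47 ± 0.20). With the mean over a gene's probes the gap was smaller, with Wdr12 at -0.95 and Pes1 at -0.73. Bop1 and Nol1 had 1 measured probe each.

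The 10 exosome subunits had a median difference of -0.95, and the 19 other members of -0.54. Those 19 include Nope, which has no known place in ribosome assembly. They leave out 26 related genes under older array names, described below, whose median was -1.09. No contrast between exosome and ribosome assembly genes is therefore read from these medians. The 3 cap subunits, which carry the RNA-binding domains at the entry of the ring, were close to each other. Exosc1 had 14340 on D6 and 24182 on D0 (-0.98 ± 0.20), just outside the 2-fold limit. Exosc2 had 23838 on D6 and 40058 on D0 (-0.97 ± 0.20), and Exosc3 had 20341 on D6 and 33020 on D0 (-0.92 ± 0.20). Exosc10, the nuclear exonuclease related to yeast Rrp6, had 9270 on D6 and 13450 on D0 (-0.76 ± 0.20).

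By brightest probe, the ring subunits differed by class. The exosome ring alternates subunits of the Rrp41 type (Exosc4, Exosc5 and Exosc6) with subunits of the Rrp42 type (Exosc7, Exosc8 and Exosc9), each pairing with the other kind. This split was made after the values were seen. The 3 Rrp41-type genes were then at least 2-fold lower (20.7% of all genes), and the 3 Rrp42-type genes were within 1.5-fold. Of all genes, 31.0% were at least 1.5-fold lower and 28.6% higher. The 2-fold call was lost for Exosc6 with quantile normalization and in the authors' deposited table (-0.91 in both), and for Exosc4 with the mean over its probes (-0.97). Exosc5 had 32373 on D6 and 103082 on D0 (-1.89 ± 0.20, 3.72-fold lower), the largest difference among the 29 genes. Exosc4 had 12325 on D6 and 27913 on D0 (-1.40 ± 0.20), and Exosc6 had 52432 on D6 and 107319 on D0 (-1.26 ± 0.20).

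The Rrp42-type genes had close levels on both days. Exosc7 had 19291 on D6 and 21435 on D0 (-0.38 ± 0.20). Exosc8 had 41745 on D6 and 36728 on D0 (-0.04 ± 0.20), and Exosc9 had 18014 on D6 and 16252 on D0 (-0.07 ± 0.20). Counting every measured probe, the highest Rrp41-type probe lay at -0.55 ± 0.20 and the lowest Rrp42-type probe at -0.38 ± 0.20. These probes lay within a software SD of each other. The median of the Rrp42-type genes was -0.07, and it was 0.0936 with quantile normalization and 0.15 with no scaling. With 3 genes a class and 1 array a day, this is a description of these 2 RNA samples.

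The probes behind this contrast are printed 5′ to 3′, with both probes of Exosc4 because they differed by 0.86 log2 units. Positions are those of the files, in mouse build mm7. The brighter Exosc4 probe lies at chr15:76411968-76412027 (plus strand) and the dimmer one at chr15:76412800-76412859. The Exosc5 probe lies at chr7:22441906-22441965 and the Exosc6 probe at chr8:109657608-109657667, both on the plus strand. The Exosc7 probe spans chr9:122835937-122836228 and the Exosc9 probe chr3:36376031-36376222, both on the plus strand, and the Exosc8 probe spans chr3:54861222-54861366 on the minus strand. Those 3 spans are longer than the 60 bases of a probe, so the files map each of them in pieces.
Exosc4, brighter probe: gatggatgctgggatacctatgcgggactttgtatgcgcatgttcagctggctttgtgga
Exosc4, dimmer probe: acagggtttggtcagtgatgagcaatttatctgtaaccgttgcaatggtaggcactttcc
Exosc5: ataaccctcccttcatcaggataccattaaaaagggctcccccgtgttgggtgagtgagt
Exosc6: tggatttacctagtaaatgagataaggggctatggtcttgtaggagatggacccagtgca
Exosc7: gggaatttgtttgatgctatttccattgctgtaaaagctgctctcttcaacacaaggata
Exosc8: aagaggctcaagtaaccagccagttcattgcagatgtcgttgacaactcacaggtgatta
Exosc9: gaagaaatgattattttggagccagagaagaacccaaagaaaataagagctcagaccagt

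Nope, which the name rule took by spelling, is now Igdcc4 and encodes an immunoglobulin-type cell surface protein with no known place in ribosome assembly. It had 2889 on D6 and 2910 on D0 (-0.23 ± 0.20). Without it the counts at 1.5-fold and 2-fold were the same.

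**Figure D2:**
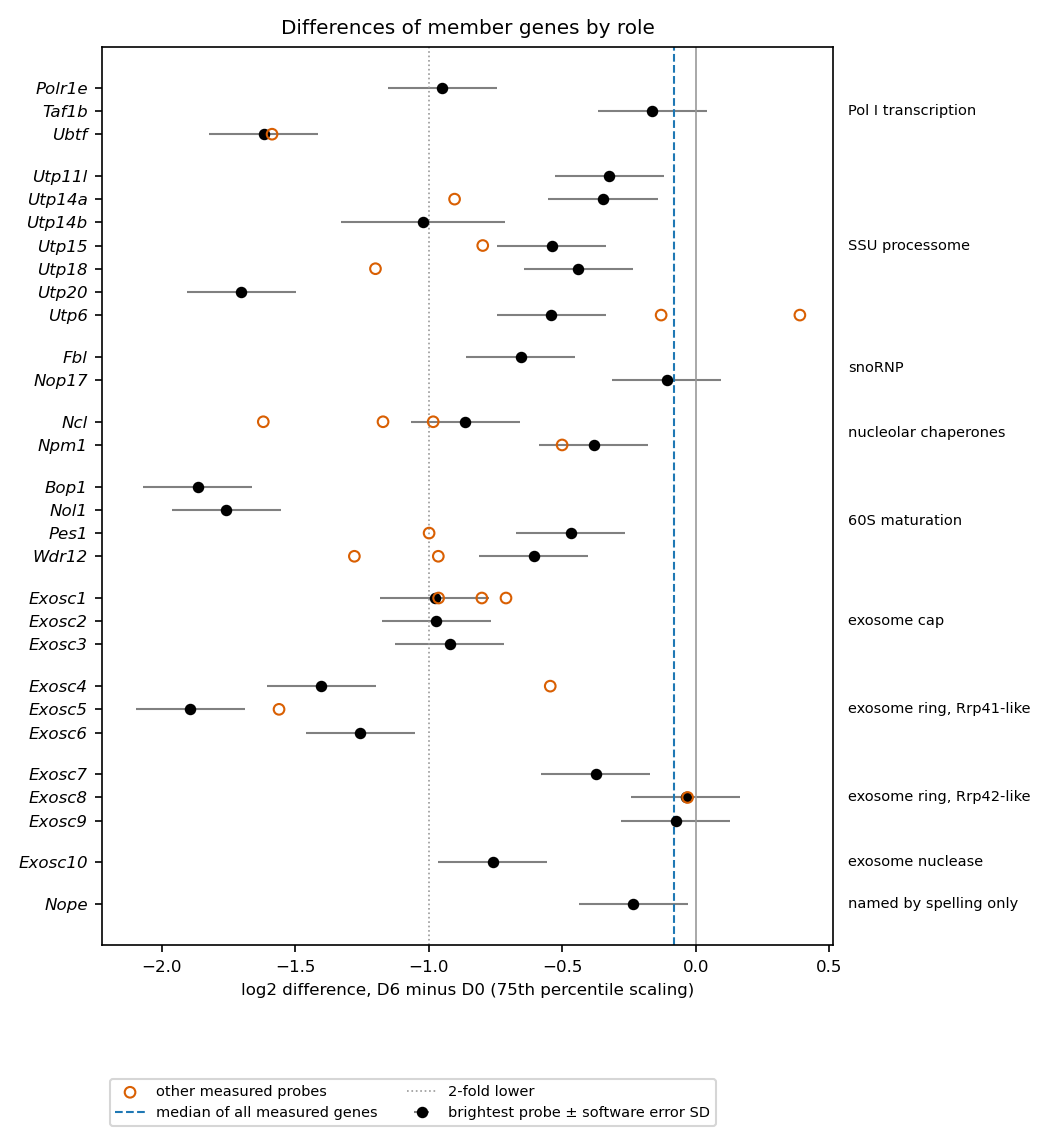
The log2 difference, D6 minus D0, of each gene's brightest probe (black, with the software error SD) and of its other measured probes (open orange circles). The dashed line is the median of all measured genes (-0.08). The brightest probes of the Rrp41-type ring genes lie left of the 2-fold line, and those of Exosc8 and Exosc9 lie at the dashed line.

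Several probes of a gene are further readings of the same 2 RNA samples. Of the 54 probes, 48 were measured and 47 of these were lower on D6, where 52.1% of all 25450 measured probes of named genes were lower. The other 6, all second or further probes, had intensities between 17.8 and 73.1, under the background limit on D6 and on D0. For 13 genes with several measured probes, the probes lay less than 1 log2 unit apart. The brightest probe gave the smallest decrease in 7 of these genes and the largest in 6.

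The widest spreads concern genes described above. Utp6 had the widest span, with its brightest probe at -0.54, the second at -0.13 and the third at 0.39, and its mean over probes was -0.09. The third, a dim probe with 273 on D6 and 179 on D0, was the 1 measured probe higher on D6. The 4 Ncl probes gave -0.86, -0.98, -1.17 and -1.62, so the brightest probe shows the smallest difference of this gene. The second Utp18 probe gave -1.20 against -0.44 for the brighter one. The dimmer Exosc4 probe gave -0.55, with 5731 on D6 and 7165 on D0. For Wdr12 the 3 probes ranged from -1.28 to -0.61, and the second Utp14a probe gave -0.90. The second Pes1 probe had 18335 on D6 and 31393 on D0. For Ncl, Utp18, Wdr12, Pes1 and Utp14a, the brightest probe thus showed a smaller difference than the others. With the mean over a gene's probes Ncl stood at -1.16, Wdr12 at -0.95 and Exosc4 at -0.97.

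By brightest probe, member genes were bright, though intensity also depends on the probe. The median intensity of the 29 genes was 19291 on D6 and 30617 on D0. All measured genes, also by brightest probe, had 3611 on D6 and 2983 on D0. Of the members, 21 of 29 lay among the 4000 brightest genes. Among those 4000, the median difference of all genes was -0.26, and 31.0% were lower by 1.5-fold or more and 14.5% by 2-fold or more. The part of brightness in the members' values was not tested.

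Older names kept many related genes out of the group. The array lists Polr1b as Rpo1-2, for example, and Nhp2, Gar1 and Nop10 as Nola2, Nola1 and Nola3. Applied to the current RefSeq symbols of the same probes, the name rule takes 26 further genes, a step added after the values were seen. All 26 were lower on D6, 21 at least 1.5-fold and 15 at least 2-fold, with a median of -1.09. Of all measured genes, 53.1% were lower, 31.0% at least 1.5-fold and 20.7% at least 2-fold. Polr1b, the second largest subunit of RNA polymerase I, had 7007 on D6 and 28139.8 on D0 (-2.23 ± 0.20). Rrp9, a protein of the U3 snoRNP, had a difference of -1.93. Rrp1 was the member of this set nearest to 0, at -0.01, and Polr1d followed at -0.50. Over all 55 genes the median was -0.97, and 23 were at least 2-fold lower (20.7% of all genes).

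Other genes of the pathway were taken from lists made with earlier results of these data known, and most of them were also lower. Among all measured genes, 31.0% were at least 1.5-fold lower and 28.6% higher, and these shares apply beside each list count below. Of 12 Pol I factors, 10 were at least 1.5-fold lower and 0 higher, with a median of -1.29. Taf1d, a subunit of the promoter selectivity factor, was lowest at -2.35, Cd3eap, a Pol I subunit, stood at -1.85, and Ttf1 and Smarca5 stood at -0.42 and -0.23. Of 42 further genes of the SSU processome and small subunit maturation, 33 were at least 1.5-fold lower and 1 higher (median -0.97). Nol6 and Bysl were lowest at -2.03 and -1.89, and Tsr2, a chaperone of a small subunit protein, was at least 2-fold higher at 1.08, with Tsr3 next at 0.12.

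Large subunit factors were mostly lower. Of 56 such genes, 49 were at least 1.5-fold lower and 0 higher (31.0% and 28.6% of all genes), with a median of -1.09. Noc3l was lowest at -2.58, followed by Mdn1, a giant ATPase that strips assembly factors, at -1.98. Nsa2 was highest at 0.21, followed by Ddx31 at -0.25. Of 14 snoRNP cores and assembly factors under other names, 11 were at least 1.5-fold lower and 0 higher (median -0.97), with Nhp2 and Nop58 at -1.20 and -1.10, and Coil and Ruvbl2 at -0.38 and -0.44. This list shares 5 genes with the 26 above (Nhp2, Nop58, Nop10, Gar1 and Nop56), and 4 of its 5 genes past 2-fold are among them. The median of its 9 other genes was -0.74, and 6 of these passed the 1.5-fold limit.

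A list of exosome cofactors, catalytic subunits and other RNA-decay factors had a median near that of all genes. It also holds nucleases that act apart from the exosome, such as Xrn1 and Xrn2, which degrade RNA from the 5′ end. Of its 17 genes, 3 were at least 1.5-fold lower and 1 higher (31.0% and 28.6% of all genes), with a median of -0.15. Dis3, the processive nuclease at the base of the exosome, was lowest at -1.10, and Pnpt1, a mitochondrial RNA nuclease, stood at -0.76. Dis3l2, a cytoplasmic nuclease that acts without the exosome, was highest at 1.62, followed by the cofactor C1d at 0.47. Among 11 genes of RNase MRP and RNase P, which cut ribosomal and transfer RNA precursors, 6 were at least 1.5-fold lower and 0 higher (median -0.62). Rpp25 and Pop1 were lowest at -3.91 and -2.15, and Pop4 and Rpp14 were highest at 0.17 and 0.11.

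Cytosolic ribosomal protein genes differed little. Of 80 genes, 4 were at least 1.5-fold lower and 0 higher (31.0% and 28.6% of all genes), and the median was -0.16. Rpl39l and Rps4l, variants of the common proteins, were lowest at -4.98 and -3.33 among those well above background on both arrays, and Rps15 and Rpl30 were highest at 0.25 and 0.16. These genes had a median intensity of 392042 on D6 and 370549 on D0, at the top of the arrays' range, with 3 probes saturated on D6 and 4 on D0. Whether near-identical copies share these probes was not examined, and the difference between this list and the members was not tested.

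**Figure D3:**
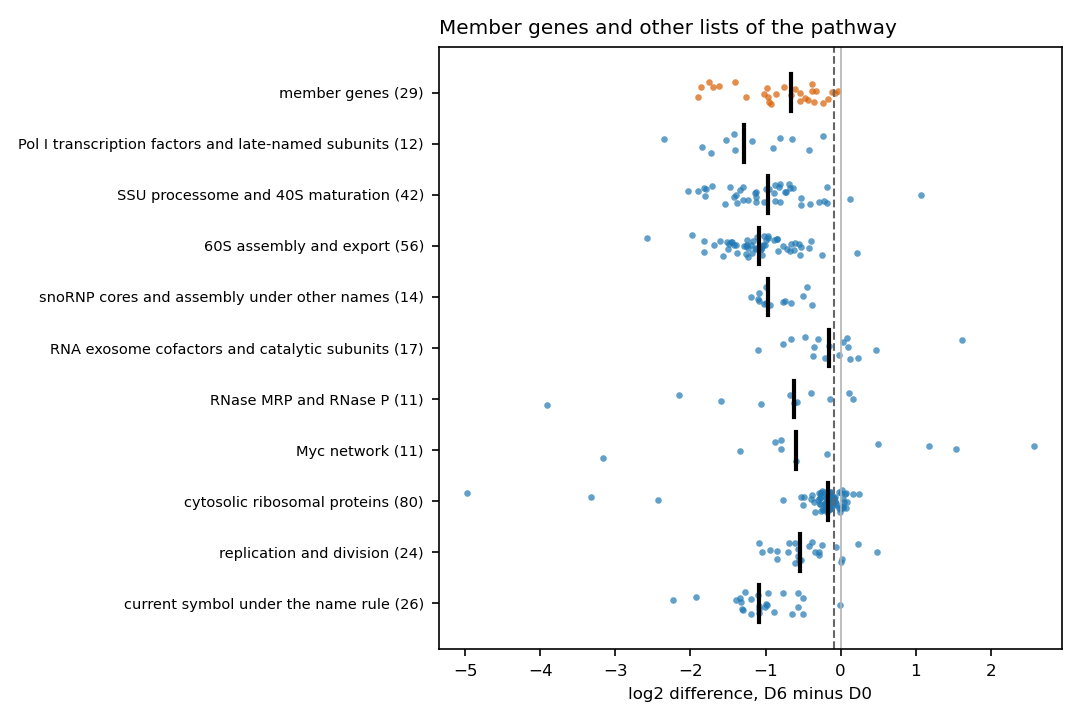
The log2 difference, D6 minus D0, of each member gene (orange) and of each gene of the other lists (blue), with the number of genes in brackets and the list median as a black bar. The dashed line is the median of all measured genes. The medians of the Pol I, SSU processome, large subunit and snoRNP lists lie left of the dashed line, with single genes such as Tsr2 (1.08) and Nsa2 (0.21) to its right, and most ribosomal protein genes lie close to it.

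Genes of the Myc network are given because Myc is known to drive ribosome production. Myc had 3014 on D6 and 23231 on D0 (-3.17 ± 0.20), and Mycn had 88340 on D6 and 192356 on D0 (-1.35 ± 0.20). Their partner Max had 41700 on D6 and 61971 on D0 (-0.79 ± 0.20). Of 11 network genes, 6 were at least 1.5-fold lower and 3 higher (31.0% and 28.6% of all genes). The highest were Mycl at 2.57 and Mxd4, a competitor of Myc for Max, at 1.54. Of 24 genes of replication and division, 9 were at least 1.5-fold lower and 0 higher (31.0% and 28.6% of all genes). Their median was -0.54, and 2 were at least 2-fold lower (20.7% of all genes). Cdc20 and Mcm5 stood at -1.09 and -1.04, and Mki67 and Aurkb at 0.48 and 0.23. The part of either list in the members' values was not tested.

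**Figure D4:**
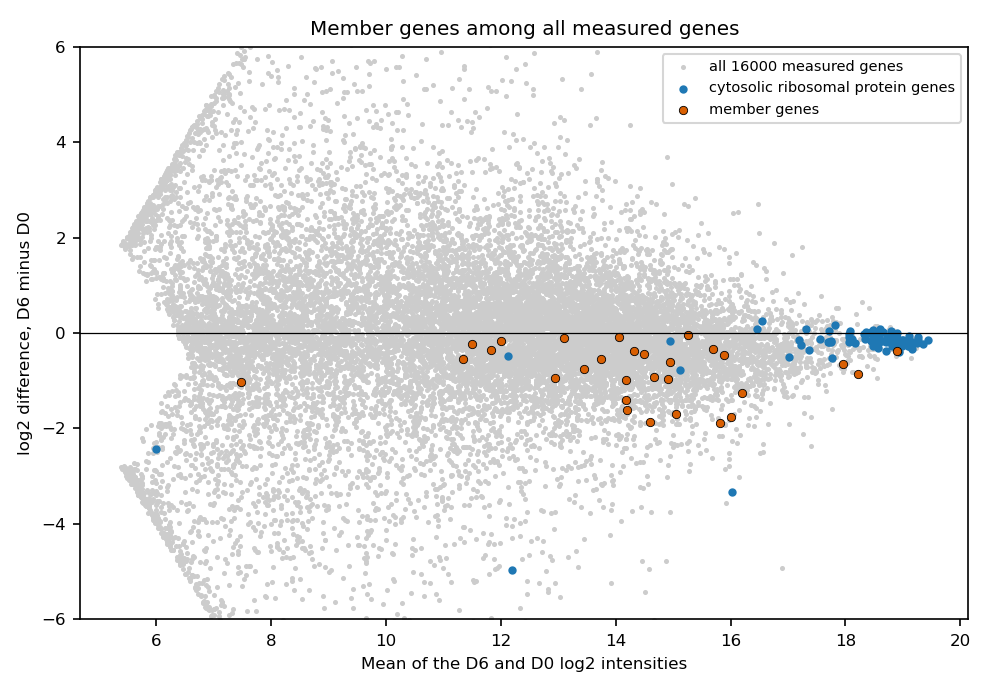
The log2 difference, D6 minus D0, against the mean of the D6 and D0 log2 intensities for 16000 measured genes (grey), ribosomal protein genes (blue) and member genes (orange). The axis ends at 6 log2 units on either side, beyond which 171 genes lie. Members lie on or below the zero line, mostly left of the tight cloud of ribosomal protein genes.

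Promoter windows of RefSeq (build GRCm38.p6, 250 bases before to 50 after the start) were found for 22 of the 29 genes, and a gene with several windows counted if any of them held a motif. The letters CACGTG, the E-box bound by Myc and Max, were searched together with CGGAAG, the core of ETS factor sites, which reads CTTCCG on the other strand. CACGTG reads the same on both strands. It occurred in 6 of 22 member genes (27.3%), namely Exosc5, Nop2, Utp20, Pes1, Utp14b and Utp18. It occurred in 11.2% of 11844 measured genes with a window and in 8.09% of all 27025 genes with a window. Among the 26 genes added by current symbol, 3 of the 23 with a window held it (13.0%). CGGAAG occurred in 13 of 22 member genes (59.1%), in 10 of those 23 (43.5%), in 31.1% of measured genes and in 18.8% of all genes with a window. CCAAT, searched on both strands, occurred in 9 of 22 member genes (40.9%) and in 42.5% of measured genes. TATAAA, also on both strands, occurred in 1 of 22 (4.55%), Pes1, and in 10.2% of measured genes.

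Windows of 3 genes with a large difference and with CACGTG are printed 5′ to 3′, beside that of Exosc8, whose level was close on both days. They were chosen after the values were seen and do not stand for a rule. Pes1 (-0.47) and Utp18 (-0.44) held CACGTG with smaller differences, and Ubtf (-1.62) and Exosc6 (-1.26) had windows without it. They lie at chr7:25658903-25659202 (plus strand) for Exosc5, chr6:125131633-125131932 (plus) for Nop2, chr10:88826765-88827064 (minus) for Utp20 and chr3:54735315-54735614 (minus) for Exosc8. Capitals mark both motifs. The E-box begins 44 bases before the start in Exosc5 and 60 before it in Nop2, and at base 38 after the start in Utp20. A match is a description of these letters, and a window without them says nothing about the factor.
Exosc5: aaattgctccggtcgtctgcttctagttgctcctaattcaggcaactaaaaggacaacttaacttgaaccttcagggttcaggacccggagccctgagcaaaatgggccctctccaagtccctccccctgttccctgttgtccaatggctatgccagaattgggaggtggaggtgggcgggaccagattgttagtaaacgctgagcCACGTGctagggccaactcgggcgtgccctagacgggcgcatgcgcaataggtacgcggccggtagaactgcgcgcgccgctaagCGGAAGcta
Nop2: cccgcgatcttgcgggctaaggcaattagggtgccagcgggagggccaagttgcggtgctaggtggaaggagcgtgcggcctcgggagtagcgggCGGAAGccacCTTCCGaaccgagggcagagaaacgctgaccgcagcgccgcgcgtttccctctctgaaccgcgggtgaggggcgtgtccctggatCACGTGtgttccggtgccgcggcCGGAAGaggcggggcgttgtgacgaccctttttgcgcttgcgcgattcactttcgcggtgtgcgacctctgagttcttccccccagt
Utp20: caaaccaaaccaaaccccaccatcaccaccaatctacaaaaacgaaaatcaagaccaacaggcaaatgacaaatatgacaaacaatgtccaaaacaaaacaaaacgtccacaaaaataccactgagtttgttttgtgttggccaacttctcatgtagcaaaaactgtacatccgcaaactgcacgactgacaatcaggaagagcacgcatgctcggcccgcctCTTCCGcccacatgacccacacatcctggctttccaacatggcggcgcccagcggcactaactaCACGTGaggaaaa
Exosc8: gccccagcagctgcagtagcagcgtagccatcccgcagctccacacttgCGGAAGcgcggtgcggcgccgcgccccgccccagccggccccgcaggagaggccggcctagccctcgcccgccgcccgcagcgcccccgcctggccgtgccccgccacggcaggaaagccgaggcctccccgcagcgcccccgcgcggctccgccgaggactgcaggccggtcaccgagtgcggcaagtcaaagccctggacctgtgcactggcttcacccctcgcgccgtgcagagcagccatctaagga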

How the data were processed

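The array design was Agilent 014868, 1 slide and 1 scan held both arrays, and spots were quantified by Feature Extraction 9.5.3.1, per the file headers. Spatial and multiplicative detrending were on. Each spot's deposited intensity is the value after background subtraction, with surrogate values for spots not above background, and the software's error, whose multiplicative part is set at 0.1. The authors also deposited a table on a log2 scale, with a median of 8.53 in both columns. No label or header used here says how it was made. With this table the median difference of all genes was 0.0079, against 0.0086 with quantile normalization, so it lay close to that setting. Its D6 minus D0 differences had a correlation of 0.995 with those of the scanner files across probes, which are not independent, and it was used as an alternative.

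Control spots and outlier spots (216 on D6 and 186 on D0) were left out, spots of 1 probe were averaged on the log2 scale, and each array was scaled to its own 75th percentile (4388 intensity units on D6 and 3758 on D0). A probe with several spots counted as well above background if most of them did. Probes well above background made up 65.5% on D6 and 61.5% on D0. Gene names are those of the array, brought to current symbols through RefSeq (assembly GRCm38.p6) for 19791 of 21537 names. Only names with a symbol other than their accession counted as genes. Per the labels, each group had 1 sample, so counts by fold at 1.5 and 2 replaced tests.

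Named genes were all members, and for each other list the 2 highest and 2 lowest among genes well above background on both arrays, with Myc, Mycn and Max. Exosc classes, motifs and the promoters and probes shown were chosen after values were seen. The members and lists were chosen with earlier results of these data known. The alternatives changed the background correction (limma 3.58.1 in R 4.3.3, normexp with offset 50), scaling, filter, value of a gene and members. Python 3.11.15 with numpy 2.4.6 and pandas 2.3.3 was used, and the steps were tested on simulated data.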

Additional observations from a re-analysis of the deposited data

How the results depend on the processing

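No paired analysis was possible because D6 and D0 had 1 array each, which also leaves no replicate to omit. The median over all members stayed below 0 under all 14 alternatives, from -0.97 to -0.43. Between settings that count genes and choose them by array name, 7 to 12 were at least 2-fold lower and 13 to 20 at least 1.5-fold lower. In the main setting the shares of all genes were 20.7% and 31.0%. Shares under the other settings are not given. The median of all genes itself ranged from -0.30 (no filter on dim probes) to 0.14 (no scaling), so the range of member counts is not read as a result. Counted by probe, 47 were lower, 30 at least 1.5-fold and 14 at least 2-fold, because more items were counted, and with current symbols 55 were lower, 37 at least 1.5-fold and 23 at least 2-fold, with a median of -0.97. Numbers in the rest of this paragraph are median log2 differences, D6 minus D0, and the cause of a shift was not tested except that leaving out the scaling adds its offset of 0.22. With no scaling the member median was -0.43. Medians were then -0.73 for Pol I transcription, -0.32 for the SSU processome, -0.16 for snoRNP, -0.40 for nucleolar chaperones, -0.96 for large subunit maturation, -0.75 for the exosome cap, -1.18 and 0.15 for the Rrp41-type and Rrp42-type ring genes and -0.54 for Exosc10. The lists stood at -1.07 (Pol I factors), -0.75 (SSU processome), -0.87 (large subunit), -0.74 (snoRNP cores), 0.0702 (exosome cofactors), -0.40 (RNase MRP and P), -0.37 (Myc network), 0.0613 (ribosomal proteins) and -0.32 (replication). With quantile normalization, medians were -0.39 for nucleolar chaperones, -0.89 for large subunit maturation, -0.73 for the cap, -1.05 for Pol I factors, -0.76 for the SSU list, -0.69 for snoRNP cores, 0.0748 for cofactors, 0.0652 for ribosomal proteins and -0.25 for replication. With the authors' deposited table they were -0.39, -0.89, -0.73, -1.05, -0.75, -0.68, 0.0721, 0.0720 and -0.25 in the same order. The lists of exosome cofactors and ribosomal proteins thus changed sign under those 3 settings, as did the median of all genes and that of the Rrp42-type ring genes (0.0936 with quantile normalization and 0.0876 with the authors' table). Averaging probes gave -1.08 for Pol I factors and -0.25 for the Myc network. By single probe, Pol I transcription stood at -1.27, nucleolar chaperones at -0.92 and Pol I factors at -0.87. Of 392 values of single genes, 64 moved by more than the software SD, and 0 of those past 1.5-fold changed sign. Signal over background limits Utp14b most.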
